A study of Homo sapiens with 6 samples.

Results

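The regions described here are 2321 open regions that were called in every library and had no other such region within 100 kb on either side. They were chosen by peak calls and positions: on chromosomes 1 to 22 and X, peaks of the 6 lists that overlapped by 1 bp or more were joined, and regions with a peak in all 6 lists were kept as shared regions. A shared region was isolated where the nearest other shared region on its chromosome lay more than 100 kb away, edge to edge, on both sides. The isolated regions made up 4.09% of 56679 shared regions, which were drawn from 149765 merged regions, and the other 54358 shared regions are the comparison set. Open chromatin was mapped by ATAC-seq, whose transposase cuts accessible DNA and tags it for sequencing, in H1155, an established human lung carcinoma cell line. The libraries were 3 biological replicates of controls and 3 of chimera-expressing cells, a chimera being in general a fusion of parts from different proteins. The titles call the chimera libraries TA, and neither that name nor the parts of the chimera, its promoter or the way it was introduced is given in the labels. Nothing in the labels says whether the cells are a clone or separate cultures, so p-values measure only the spread between these libraries.

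Open chromatin marks promoters, enhancers and binding sites of structural factors, where bound proteins keep nucleosomes away. Such elements cluster around genes and are sparse in gene-poor stretches of chromosomes. An element that stands alone in a gene-poor stretch can still act, since enhancers and structural sites work over long distances through loops of the chromatin fibre.

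The deposited coordinates ran past the published end of the chromosome in build GRCh38 on 14 of 23 chromosomes and past the end in GRCh37 on 0 of 23. Positions are therefore given as deposited, counted from 1, and read as GRCh37 coordinates although the submitters' notes name GRCh38. No annotation of GRCh37 was used here, so no region is placed in a gene, exon or intron. The 6 lists held 85730 to 109321 peaks on these chromosomes, fewest in control 2 and most in control 3. The lowest pileup that was called ranged from 9 to 12 fragments. The chimera libraries, with 94484 to 99654 peaks, lay inside the control range. The part of these differences in the results below was not tested.

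Isolation was relative to shared regions and covered a wide range of distances. The distance from an isolated region to its nearer shared neighbour had a median of 148.565 kb, against 9.082 kb over all shared regions. The farther neighbour lay at a median of 284.131 kb. In all, 642 isolated regions (27.7%) had no shared region within 200 kb, 61 had none within 500 kb, and 6 had none within 1 Mb. A gap of over 1 Mb on at least 1 side was found at 129, and 7 lay at the end of a chromosome's series of shared regions with no neighbour on that side. The largest distance to a farther neighbour was 21356.5 kb. Gaps in the assembly and sequence where reads cannot be placed were not looked at, and their part in the distances was not tested. These distances describe the rule that chose the regions and were not tested.

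The region with the largest distance was chr4:61317902-61318400, 499 bp wide, with shared neighbours 1271 kb and 1909 kb away. Its summit pileup, the number of overlapping fragments at the highest point of the peak, was 21, 18 and 21 in controls 1, 2 and 3 and 32, 16 and 29 in chimera libraries 1, 2 and 3. The ranges of the groups overlapped, and all 6 values were low for a shared region. The next, chr9:41954205-41955273, had neighbours 1162 kb and 2272 kb away and pileups of 77, 45 and 85 in controls against 57, 52 and 69 in chimera libraries. It was the tallest of the 5 most isolated regions in every library. The remaining 3 were chr10:9444080-9444749, chr14:85393516-85394259 and chr21:21226111-21226900. Their pileups lay between 17 and 30 in all 6 libraries.

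At the edge of the rule, distance did not come with a step in height. Just inside lay chr1:198025406-198025772 with its nearer neighbour at 100.067 kb, and a pair on chromosome 5, chr5:60139478-60140643 and chr5:60240722-60242072, each the other's nearer neighbour. The first had pileups of 18 to 33, the second of 47 to 128 and the third of 82 to 158. Just outside lay the pair chr6:71276399-71277117 and chr6:71377088-71378418, again each other's neighbours, and chr1:222160980-222161612 at 99.952 kb. Their pileups were 77 to 115, 43 to 93 and 22 to 39. Values on both sides of the threshold thus overlapped, as a description of these 6 regions.

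The label of isolation held for shared regions and not for open chromatin as a whole. Within 100 kb of an isolated region, 2183 of 2321 (94.1%) had at least 1 region called in 1 to 5 lists, and 138 (5.95%) had none. Regions called in a single list were the most common company, present at 1841 isolated regions (79.3%). Regions called in 5 lists, which missed the shared set by a single library, lay near 797 (34.3%). The density of regions called in 1 to 5 lists was 1.92 per 100 kb of flank against 3.16 per 100 kb over the chromosomes, a ratio of 0.607. This ratio was lower for regions called in more lists, from 0.625 for 1 list to 0.554 for 5 lists. The rule leaves no shared region in these flanks, so low ratios and their fall with more lists are in part set by the choice of regions.

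These less consistent regions were densest close to the isolated region. The density was 0.259 per 10 kb in the first 10 kb from its edge, 0.203 in the next 10 kb, and between 0.176 and 0.186 in each further step out to 100 kb. The gradient appeared in each library's own calls, with the highest value in the first 10 kb in all 6. Even there, the density stayed below the library's mean over the chromosomes, which the rule in part sets.

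**Figure D1:**
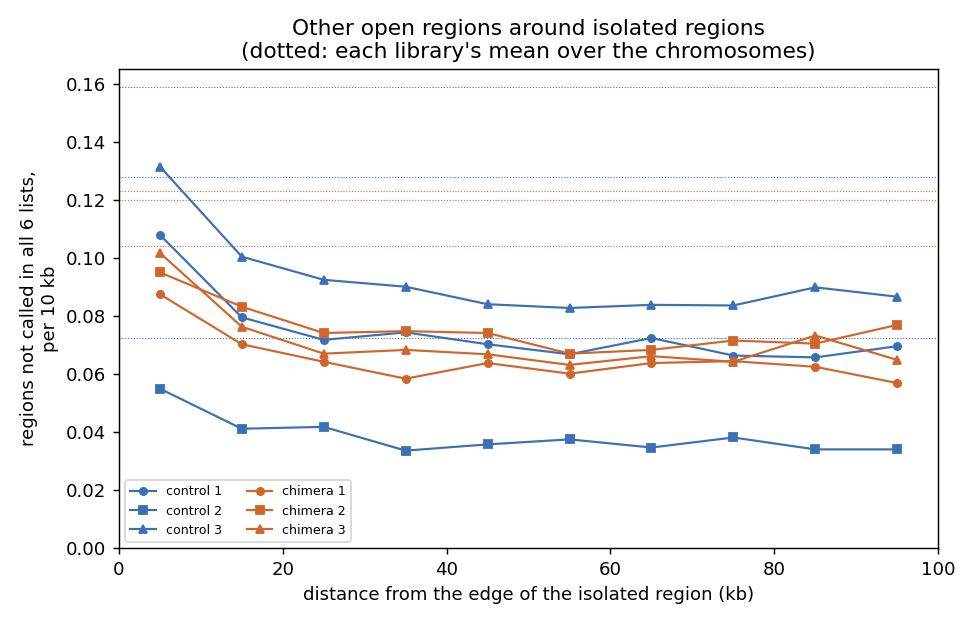
Regions that a library called but that were not called in all 6 lists, per 10 kb (vertical axis), against distance from the edge of the 2321 isolated regions in kb (horizontal axis), 1 line per library. Dotted lines give each library's mean over the chromosomes, and every solid line is highest in the first 10 kb and lies below its own dotted line.

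The share of isolated regions with such a neighbour differed among control libraries more than between groups. A region called by the library itself lay within 100 kb of 71.4%, 49.9% and 79.4% of isolated regions in controls 1, 2 and 3, and of 68.3%, 73.5% and 69.7% in chimera libraries 1, 2 and 3. Control 2, with the fewest peaks, was lowest and control 3, with the most, was highest, so the chimera values fell inside the control range. The mean was 66.9% ± 15.3 (SD, n = 3) in controls and 70.5% ± 2.67 (SD, n = 3) in chimera libraries, which did not differ beyond the spread (two-sided exact permutation test, p = 0.9, where 0.1 is the smallest p that 3 against 3 can give). Without control 2 the difference, 3.58 percentage points, turned to -6.36. The share of a library's non-shared regions that lay near isolated regions was 8.50% ± 0.445 (SD, n = 3) and 9.18% ± 0.446 (SD, n = 3), respectively (exact permutation test, p = 0.3).

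Regions whose peak calls separated the groups completely were also found beside isolated regions. Of 930 regions called in 3 of 3 chimera lists and in 0 of 3 control lists, 105 (11.3%) lay within 100 kb of an isolated region, beside 103 isolated regions. Of 1197 regions with the opposite pattern, 89 (7.44%) did, beside 93 isolated regions. Their densities in the flanks were 0.751 and 0.504 of their densities over the chromosomes. Of all 93086 regions that were not called in every list, 8481 (9.11%) lay within 100 kb of an isolated region. Their density ratio was 0.607. The share of chimera-only regions thus lay above that of all such regions, and the share of control-only regions lay below it. These shares are a description, and the differences between them were not tested.

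The isolated share of the shared set varied widely between chromosomes and was largest on some gene-poor ones. They made up 8.69% of shared regions on chromosome 4 (203 regions), 8.46% on X (161), 7.46% on chromosome 18 (81) and 7.20% on chromosome 13 (92). The smallest shares were 0.548% on chromosome 22 (8 regions), 0.847% on chromosome 19 (19), 1.30% on chromosome 17 (37) and 1.61% on chromosome 20 (27). Across the 23 chromosomes, the share fell with the number of protein-coding genes per Mb, with a Pearson r of -0.72 and a Spearman rho of -0.88. The share also fell with the density of shared regions per Mb (r of -0.87, rho of -0.97), a density that the rule itself uses. The number of isolated regions per Mb fell with gene density too (r of -0.75, rho of -0.83). Chromosome X departed from this order: it had 5.57 protein-coding genes per Mb, more than chromosomes 2, 3, 5, 8, 9 and 10, where the share was 3.30% to 5.77%. These correlations are descriptions over chromosomes that share all 6 libraries.

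**Figure D2:**
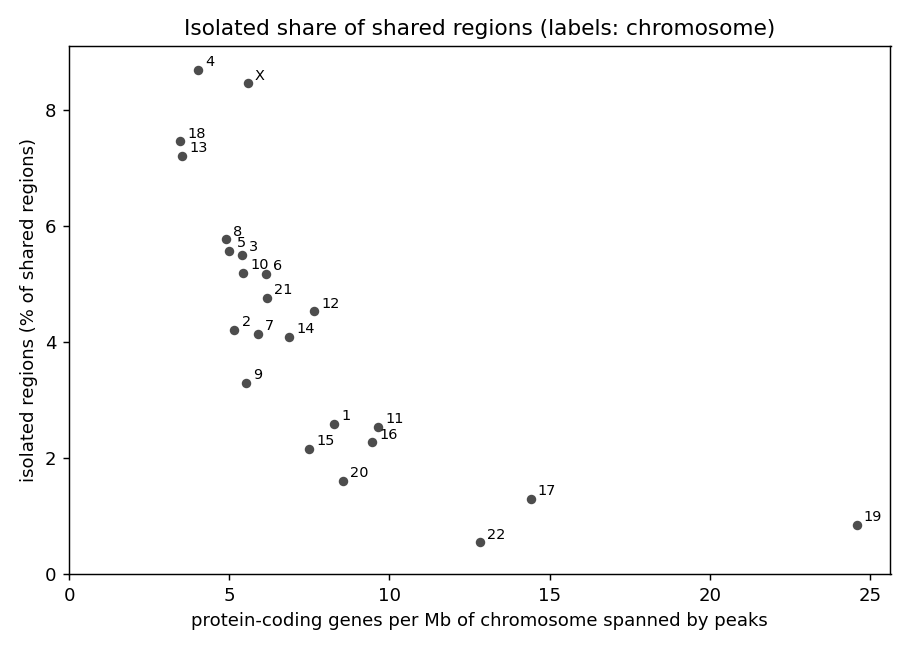
Isolated regions as a percentage of the shared regions of each chromosome (vertical axis) against protein-coding genes per Mb, from RefSeq gene counts and the length of chromosome spanned by peaks (horizontal axis), 1 point per chromosome. Chromosomes 4, 13 and 18, with the fewest genes per Mb, lie at 7.20% to 8.69%, and chromosomes 17, 19 and 22, with the most, lie at 0.548% to 1.30%.

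Isolated regions often followed each other along a chromosome. A run was counted as a stretch in which consecutive shared regions were all isolated. The shared region next to an isolated one already has a gap of over 100 kb on that side. The rule thus favours runs, and no expected share was worked out. There were 1337 runs, of which 810 held a single region, and the other 527 held 1511 isolated regions (65.1%). A total of 56 runs held at least 5 regions, with 339 regions between them. The longest, on chromosome 8, held 10 regions. Runs of 9 spanned chr13:54103529-56574314, chr18:24743178-28787382 and chrX:77727046-80065800, or 2.47, 4.04 and 2.34 Mb. The regions' fold percentiles, explained below, were averaged over the libraries. These means ranged from 29.1 to 66.1 in the longest run. In the runs of 9 they ranged from 27.6 to 88.3, from 21.9 to 77.8 and from 19.4 to 90.1.

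Height was read in several ways, which ordered isolated and other shared regions differently. The summit pileup and the local background under each peak, the fragments expected there, were recovered from the deposited values. Whether the background leaves out the peak's own fragments was not tested. At chr7:76751125-76752229, with no other region called within 100 kb in any list, the background was 7.24 to 10.98 fragments. The lowest background of each library was 2.53 to 3.77. The deposited fold is the pileup plus 1 divided by the background plus 1, and the deposited −log10 q gives the strength of the call. Where a library had several peaks in a region, the strongest was used. All these measures come from the same peaks and are not independent of each other.

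Isolated regions had lower summits. Their median pileup was 34, 28 and 43 fragments in controls 1, 2 and 3 and 33, 32 and 37 in chimera libraries 1, 2 and 3. The other shared regions had medians of 52, 42 and 66, and of 49, 49 and 57. In each library the isolated median was the lower, at 0.649 to 0.673 of the other. The mean difference was -18 ± 3.16 fragments (SD, n = 6 libraries), and an exact sign-flip test on both sides gave p = 0.031. With 6 libraries this test can go no lower. All 11 such tests gave this same value, so adjustment over them could not change it and adds no evidence. Some of the 11 were of the local background, which the rule in part sets. Several measures entered both as medians and as percentiles.

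The local background was lower by a larger factor. It is read at least in part from the surrounding sequence, where the rule leaves no other shared region within 100 kb. A lower value is therefore in part set by the choice of regions and is given as a description. The median local background was 2.76, 2.98 and 3.36 fragments in controls and 3.30, 2.90 and 3.78 in chimera libraries, against 5.80, 5.72 and 7.18 and 6.36, 5.80 and 7.56 at the other shared regions. The ratio was 0.468 to 0.521, and the mean difference was -3.22 ± 0.461 fragments (SD, n = 6 libraries). In 42.1% to 50.3% of isolated regions the background sat at the lowest value of the library, the floor that a genome-wide average sets, against 9.02% to 9.79% of other shared regions.

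The deposited fold stood higher at isolated regions although the pileup was lower. Median fold was 8.70, 6.68 and 9.38 in controls and 7.13, 7.75 and 7.27 in chimera libraries, against 7.75, 6.29 and 8.17 and 6.63, 7.22 and 6.70 at the other shared regions. The isolated median was higher in 6 of 6 libraries, by 1.06 to 1.15 times. Since the background divides the fold, this difference too is in part set by the rule. The deposited −log10 q went the other way, with medians of 22.1, 15 and 29.1 in controls and 18, 19.6 and 20.2 in chimera libraries, against 27.9, 19.2, 36.2, 23, 25 and 26.9. Each of these differences had the same sign in all 6 libraries (exact sign-flip test, p = 0.031, which adjustment over the 11 tests could not change). The −log10 q is also reckoned against the local background, so for both measures the p-value is given as a description.

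On a common scale of 0 to 100, the percentile among all shared regions of a library, the measures spread far apart. The median isolated region stood at a fold percentile of 60.0, 55.4 and 62.0 in controls and 56.8, 56.2 and 57.3 in chimera libraries. Its mean percentile over the libraries was 58.0 ± 2.51 for fold, 45.3 ± 1.24 for peak width, 39.0 ± 0.778 for −log10 q, 25.9 ± 0.701 for pileup and 12.7 ± 1.07 for local background (SD, n = 6). Fold was above 50 in 6 of 6 libraries and the other 4 measures in 0 of 6. Exact sign-flip tests gave p = 0.031 each for fold, width, −log10 q and pileup, which adjustment over the 11 tests could not change. The background percentile, and through it the percentiles of fold and −log10 q, follow in part from the rule. The p-values for fold and −log10 q are therefore given as a description. A statement that isolated regions are stronger or weaker than other shared regions thus depends on the measure.

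**Figure D3:**
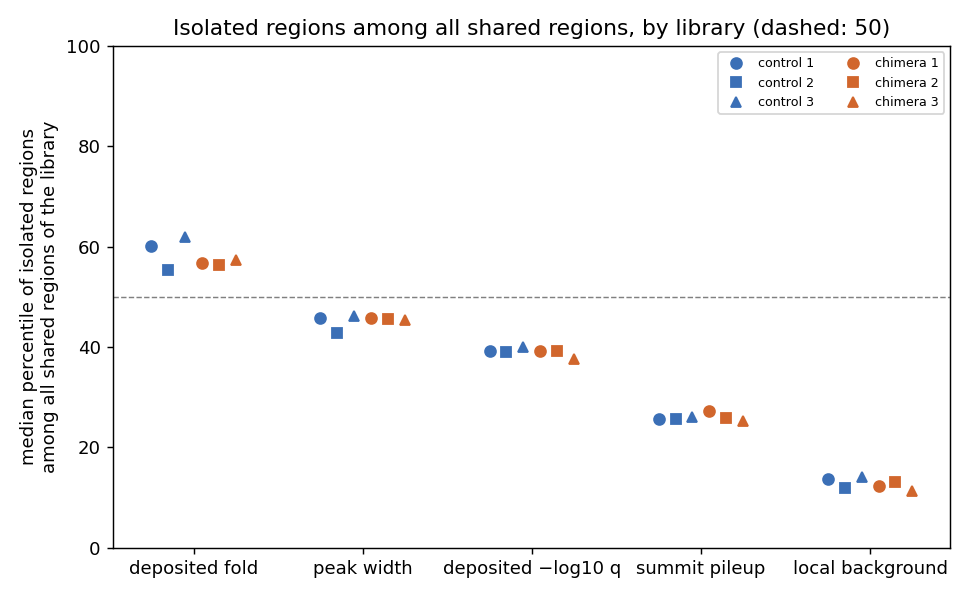
Median percentile of the 2321 isolated regions among all 56679 shared regions of the same library (vertical axis, 0 to 100) for 5 measures (horizontal axis), 1 symbol per library. Fold lies above the dashed line at 50 in all 6 libraries, and peak width, −log10 q, pileup and local background lie below it in all 6.

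Regions at the floor of the background share the same divisor, so fold there follows the pileup. Among them, isolated regions had median pileups of 25, 22 and 31 in controls and 25, 24 and 29 in chimera libraries, and other shared regions had 25, 22, 30, 24, 23 and 28. These pileups differed by 0 to 1 fragments (mean 0.667 ± 0.516, SD, n = 6 libraries), and fold by 0 to 0.267. Isolated regions were higher in 4 libraries and equal in 2, for which an exact sign-flip test can give no p below the 0.125 found for both. Peaks at the floor were wider at isolated regions, by 19.5 ± 6.09 bp (SD, n = 6 libraries). Above the floor, fold was higher at isolated regions by 2.02 ± 0.286 and pileup was lower by 7.67 ± 2.07 fragments (SD, n = 6 libraries). These 3 differences had the same sign in 6 of 6 libraries (exact sign-flip tests, each p = 0.031, but 0.0521 after adjustment over these 5 tests). This split was added after the values above were seen.

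The measures changed along the whole range of distances, not only at 100 kb. Shared regions with a neighbour under 1 kb away had a mean of library medians of 60.7 fragments at the summit and 10.3 in the background. At 10 to 25 kb the values were 48.0 and 5.09, at 50 to 100 kb 41.7 and 3.95, at 100 to 200 kb 35.7 and 3.30, and at 200 to 500 kb 31.7 and 3.06. Pileup and background thus fell at each step up to 500 kb. The 61 regions with no shared region within 500 kb had 32.5 and 3.04.

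Fold and −log10 q rose first and then fell. Mean median fold was 5.45 under 1 kb, 8.31 at 25 to 50 kb, 8.29 at 50 to 100 kb, 7.92 at 100 to 200 kb and 7.62 at 200 to 500 kb. Mean median −log10 q was 23.4, 27.3, 25.7, 21.3 and 18.5 in the same classes. The isolated regions therefore held a lower fold than shared regions with a neighbour at 25 to 100 kb, and a higher fold than those with a neighbour within 5 kb. Classes are made from distances between the regions themselves, and no test was made between them.

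**Figure D4:**
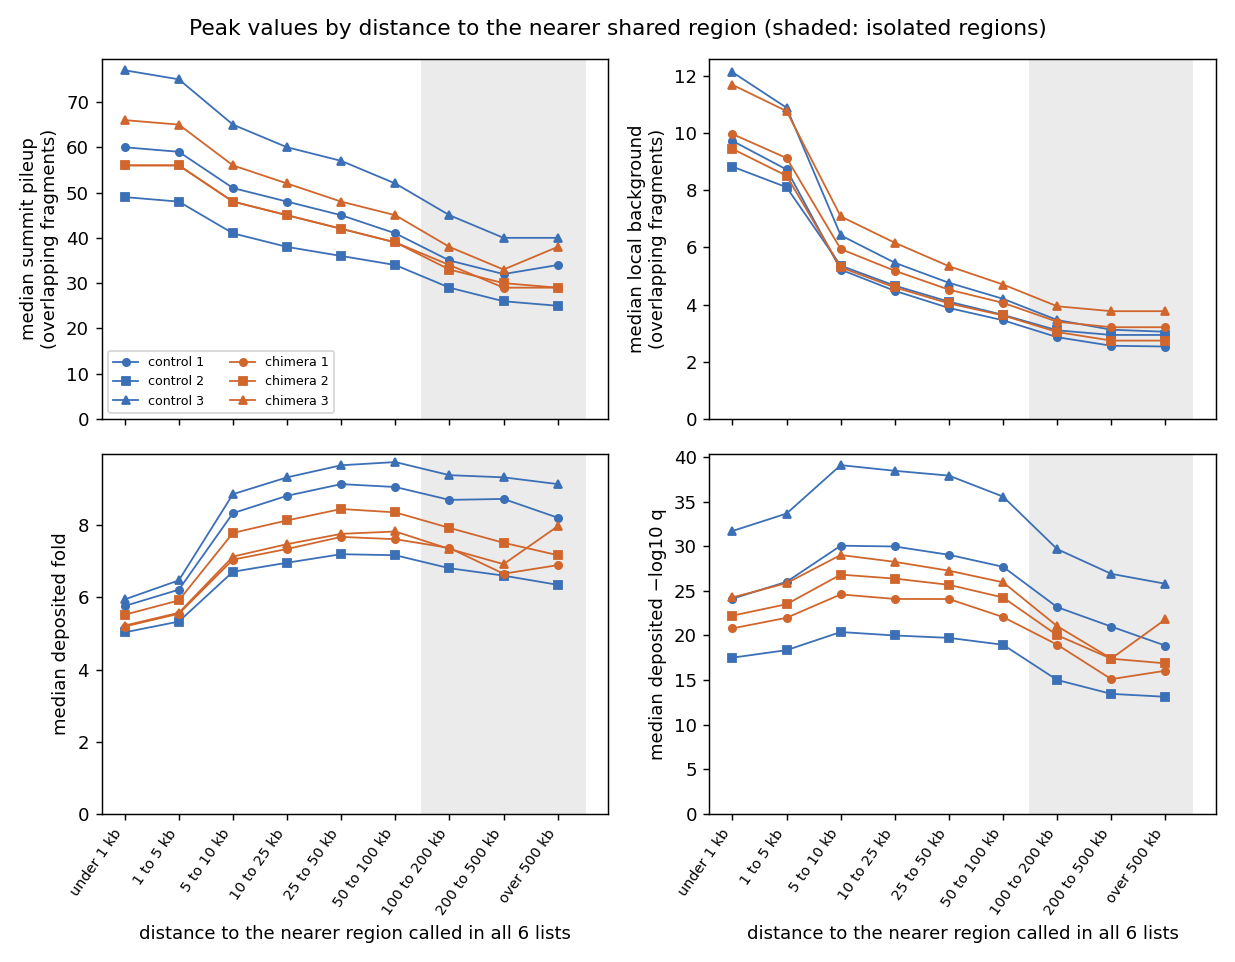
Median summit pileup, local background, deposited fold and deposited −log10 q (vertical axes) of shared regions in 9 classes of distance to the nearer shared region (horizontal axes), 1 line per library, with the classes of isolated regions shaded. Pileup and background fall or stay level with distance in every library up to 200 to 500 kb, and fold and −log10 q are highest between 5 and 100 kb, except for fold in chimera 3, which is highest over 500 kb.

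Peaks at isolated regions were slightly narrower over all regions, but not among those at the background floor. The peak was 504, 399 and 549 bp wide at the median in controls and 468, 486 and 485 bp in chimera libraries, against 536, 454, 581, 500, 519 and 522 bp at the other shared regions. The mean difference was -36.8 ± 9.11 bp (SD, n = 6 libraries), and isolated peaks were narrower in 6 of 6 libraries. The exact sign-flip test gave p = 0.031, which adjustment over the 11 tests could not change. With isolation set at 50 kb the difference was 0 bp, and among regions at the background floor isolated peaks were the wider in 6 of 6 libraries, by 12 to 29 bp. The merged region had a median width of 717 bp and a range of 228 to 2584 bp, against a median of 740 bp for the others. At least 1 kb was reached by 549 isolated regions (23.7%) and by 27.0% of the others.

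Libraries placed the summit close together. The summits of the 6 libraries lay within 66 bp of each other at the median isolated region and within 57 bp at the median other shared region. All 6 fell within 100 bp at 1532 isolated regions (66.0%) and at 70.1% of the others. A single peak per library was called at 1670 isolated regions (72.0%) and at 72.8% of the others. These shares were not tested.

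Many isolated regions were close to the limit of detection in at least 1 library. The lowest −log10 q over the 6 lists was under 5 at 285 isolated regions (12.3%), against 7.38% of the others. It was at least 10 at 1260 (54.3%) against 67.7%, and at least 50 at 164 (7.07%) against 11.2%. A region that missed the threshold in a single library would have left the shared set, so weak regions are under-represented in both sets.

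Isolated regions had the lower pileup and the higher fold percentile in each class of width. At the 536 isolated regions under 500 bp wide, the pileup percentile was 12.9 ± 0.423 (SD, n = 6 libraries), against 31.3 ± 0.475 at other shared regions of that width. At the 1236 from 500 bp to under 1 kb it was 24.8 ± 0.998, against 46.8 ± 0.617. At the 549 of at least 1 kb it was 59.2 ± 1.43, against 75.8 ± 0.177. Their fold percentiles were 43.1 ± 2.55 against 32.6 ± 1.28 under 500 bp, 60.7 ± 3.00 against 49.1 ± 0.425 from 500 bp to under 1 kb, and 69.9 ± 2.57 against 65.1 ± 2.65 at 1 kb and over. These values are a description and were not tested.

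The tallest isolated regions reached pileups of 231 to 360, by library, against 516 to 540 at the tallest other shared regions. The highest, by the lowest −log10 q over the lists (192), was chr13:50017621-50018971, 1351 bp wide, with shared neighbours 129 kb and 140 kb away. Its pileups were 256, 231 and 320 in controls and 286, 273 and 282 in chimera libraries, which overlapped. The second was chrX:14891000-14891925, with pileups of 246, 223 and 328 against 242, 233 and 293. Here too the chimera values lay inside the control range.

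The other 8 of the 10 strongest were chr6:155635110-155636403, chr14:53018410-53019804, chr11:13689305-13691032, chr7:76751125-76752229, chr5:82372870-82373900, chr1:236958147-236959298, chr7:132766133-132767234 and chr7:35839809-35841748. Their pileups ran from 145 to 360. The region at chr7:76751125 combined a fold of 18.2 to 21.3 with no other region called within 100 kb in any list. In contrast, chr7:35839809 had 10 such regions and a fold of 10.9 to 12.1. Adjusted p-values for a group difference in fold percentile (limma, Benjamini-Hochberg) were 0.831 to 0.997 over the 10. Their median fold percentiles over the libraries were 88.0 to 99.9, near the top of the scale. The test thus had little room to show a rise at most of them, and these p-values do not show that the groups are alike.

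At the other end were broad or shallow regions. The widest peaks belonged to chr2:153573748-153575743, whose pileups of 119 to 194 stood on a local background of 16.4 to 24.5, so that its fold was 6.88 to 7.66. Next came chr7:35839809-35841748, named above, and chr10:93168900-93170998, with pileups of 67 to 89. The lowest fold percentile belonged to chr4:30718772-30719657, with shared neighbours 733 kb and 678 kb away. It had a fold of 3.16 to 3.83, on a background of 7.70 to 11.5 fragments that exceeded the isolated median in every library. The 2 next lowest were chr6:121913801-121914900, with pileups of 13 to 27, and chr5:70306763-70307595, with 14 to 27.

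Libraries ordered the isolated regions less alike than they ordered other shared regions. The Spearman correlation of fold over isolated regions averaged 0.763 between libraries of the same group (range 0.738 to 0.797) and 0.701 between groups. Over the other shared regions it averaged 0.854 and 0.824. For pileup the values were 0.838 and 0.782 at isolated regions and 0.921 and 0.893 at the others. The within-group SD of the fold percentile had a median of 9.96 in controls and 10.1 in chimera libraries at isolated regions, against 7.94 and 7.65 at the others. These are descriptions over regions, and lower pileups carry a larger counting error, whose part was not tested.

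Isolated regions as a set did not differ between the groups by more than the spread between libraries. The mean of the library medians of fold percentile was 59.1 ± 3.35 in controls and 56.8 ± 0.514 in chimera libraries (SD, n = 3 each), a difference of -2.37 (exact permutation test, p = 0.4, and 1 after adjustment over 11 such comparisons). Pileup percentile was 25.7 ± 0.304 and 26.1 ± 1.02 (p = 0.8, exact permutation test), background percentile 13.2 ± 1.21 and 12.2 ± 0.803 (p = 0.3, exact permutation test). The chimera values of fold percentile lay inside the control range. With a library left out, the difference ranged from -4.52 without control 2 to -0.280 without control 3. Over the 642 regions isolated by more than 200 kb it was -6.11, with all chimera values below all control values (exact permutation test, p = 0.1). A design of 3 against 3 cannot give a p below 0.1.

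Region by region, no isolated region passed the test on fold percentile. The limma fit over all 56679 shared regions called 0 isolated regions at an adjusted p under 0.05 and 0 of all shared regions, a background of 0%. At an unadjusted p under 0.05, 138 isolated regions (5.95%) were higher in chimera libraries, against a background of 5.82%, and 196 (8.44%) were lower, against 5.54%. The 3 chimera percentiles all lay above the 3 control percentiles at 190 isolated regions (8.19%, background 8.93%) and all below at 224 (9.65%, background 7.59%). The shares of higher regions were near the background, and those of lower regions were above it. On centred log2 pileup, given below, it was instead the share of higher calls that exceeded its background. The spread within groups was also larger at isolated regions, and the local background enters the fold. The part of these in the shares was not tested. The median difference was -0.618 percentile points at isolated regions and 0.498 at the others.

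On the pileup itself, a measure added after the data were seen, a few isolated regions did pass. With log2 pileup centred on each library's median over all shared regions, limma called 15 isolated regions higher in chimera libraries (0.646%, background 0.363%) and 4 lower (0.172%, background 0.236%) at an adjusted p under 0.05. The log2 differences were 0.77 to 1.46 for the higher and -1.05 to -0.80 for the lower. The same 19 regions had adjusted p-values of 0.141 to 0.424 on fold percentile. Leaving out any 1 library other than control 2 left 0 of the 19 called, and 0 of all shared regions. Leaving out control 2 left 3 of the 19, all higher, and 68 of all shared regions. With the replicate number as a block 0 of the 19 and 0 of all shared regions were called. The sign of all 19 stayed the same under each of these settings.

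The largest rise was at chr10:100432839-100433503, 665 bp wide and 117 kb from its nearer shared neighbour. Its pileup was 17, 16 and 22 in controls and 42, 47 and 60 in chimera libraries, so the lowest chimera value lay well above the highest control value. The centred log2 difference was 1.46 (SE 0.15, limma adjusted p = 0.0143). Its fold percentile went from 16.3, 15.7 and 20.3 to 74.3, 78.7 and 88.5 and missed the threshold (adjusted p = 0.141). This region and those named below were chosen by their group difference, so separation of the groups follows in part from the choice.

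The next region by p on fold percentile was chr6:120208638-120209580. Its pileup was 22, 20 and 27 in controls and 51, 52 and 60 in chimera libraries, without overlap, and the centred log2 difference was 1.27 (SE 0.15, limma adjusted p = 0.0200). The region chr22:40894333-40894857 had pileups of 30, 26 and 41 against 41, 57 and 55, where the highest control equalled the lowest chimera value. These pileups are not scaled for depth, and the median over all shared regions was 65 in control 3 and 48 in chimera 1. Its fold percentiles, 43.2, 48.0 and 51.3 against 77.2, 87.5 and 82.3, did not overlap. The region was not called by either measure (limma adjusted p = 0.156 on fold percentile and 0.0773 on pileup), and it had 18 regions of 1 to 5 lists within 100 kb.

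Other regions called higher on pileup were chosen for mention after their values were seen. At chr20:9236699-9237402 the pileup was 12, 19 and 19 in controls and 35, 37 and 62 in chimera libraries, and the peak widened from 200, 282 and 307 bp to 704, 655 and 611 bp. At chr4:172550536-172551420 it was 25, 22 and 37 against 62, 59 and 55. At chr3:31052903-31053361 it was 26, 22 and 36 against 45, 47 and 78. The groups did not overlap at any of these 3 regions. The most isolated of the 15 was chr6:81847591-81848705, with shared neighbours 499 kb and 613 kb away and pileups of 26, 20 and 19 against 43, 67 and 46.

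Chromosome 21 held 2 of the 15. At chr21:28670336-28671224 the pileup was 52, 27 and 47 in controls and 73, 79 and 80 in chimera libraries. At chr21:23763280-23763835 it was 23, 16 and 34 against 35, 52 and 47, with the highest control close to the lowest chimera value. Pileups are not scaled for depth, and the fold percentiles there were 37.5, 15.7 and 54.4 against 72.4, 96.3 and 83.3. Control 2 had the lowest pileup of the controls at both regions. At 10 of the 15 all chimera values of the local background lay above all control values, and at 9 after division by each library's floor. Of the 4 regions called lower, all chimera values lay below all control values at 0, and at 3 after that division. The regions were chosen by pileup, which comes from the same peaks, and the share over all shared regions was not worked out. At chr10:100432839 the local background was 2.53 to 3.05 fragments in controls and 3.76 to 4.54 in chimera libraries, and at chr21:28670336 it was 3.20 to 3.68 against 4.98 to 6.20. Its part in the calls, and the part of the peaks' own fragments in it, were not tested.

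Among regions that were lower in chimera libraries, chr13:106837144-106837497 had the lowest p on fold percentile. Its pileup was 27, 29 and 37 in controls and 14, 15 and 20 in chimera libraries, close to the lowest called pileups of 9 to 12. Its centred log2 difference was -0.90 (SE 0.17, limma adjusted p = 0.0405), and its fold percentile missed the threshold (adjusted p = 0.141). The regions chr2:147579321-147579809, with pileups of 39, 33 and 53 against 25, 24 and 30, and chr6:8749565-8750079, with 29, 27 and 38 against 21, 21 and 21, also separated the groups. Neither was called (limma adjusted p = 0.163 on fold percentile for both, and 0.0734 and 0.122 on pileup).

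The other 3 regions called lower on pileup lay on chromosomes 6, 15 and 2. At chr6:89283370-89284192 the pileup was 37, 32 and 47 in controls and 16, 22 and 17 in chimera libraries (log2 difference -1.05, SE 0.18, limma adjusted p = 0.0320). At chr15:31890554-31891498 it was 62, 51 and 77 against 25, 27 and 43 (-1.0, SE 0.17, adjusted p = 0.0328). At chr2:80277198-80277879 it was 41, 36 and 52 against 20, 23 and 30 (-0.80, SE 0.15, adjusted p = 0.0476). At each, all 3 chimera values lay below all 3 control values, which follows in part from the choice of regions by their pileup difference. Each region stayed called in every library, as the rule requires.

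**Figure D5:**
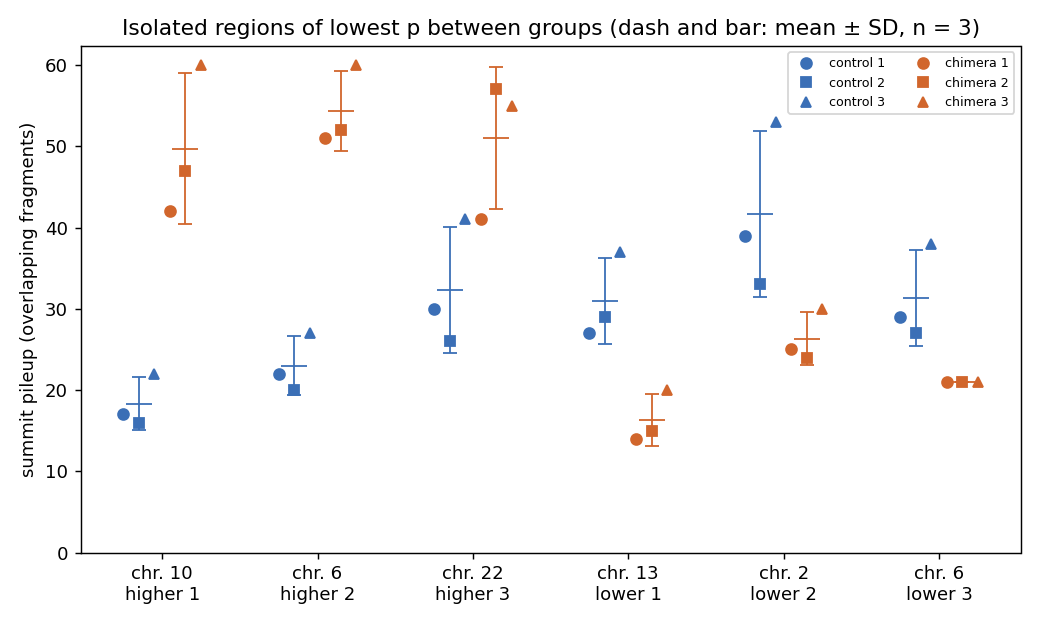
Summit pileup in overlapping fragments (vertical axis, from 0) of the 3 isolated regions of lowest p in each direction on fold percentile (horizontal axis), 1 symbol per library, with dashes and bars for the mean and SD of 3 libraries. Groups are separate at 5 of the 6 regions and touch at the chromosome 22 region, where control 3 and chimera 1 are both at 41. The regions were chosen by their group difference, so separation follows in part from the choice. Pileups are not scaled for depth.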

How the data were processed

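Each library had 1 peak list in MACS2's narrowPeak form, called per library. The fold (a ratio), the −log10 p and −log10 q and the peak positions are the authors' deposited values. Not given in the sources used here are the aligner, the filters on reads, a transposase shift, and how MACS2 was set. HOMER 4.9 and GRCh38 appear, with no role, in the submitters' processing notes.

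From these, the pileup and local background of each peak were solved from fold and −log10 p as a Poisson tail, within 0.005 on the −log10 scale, for at least 99.9% of peaks in each list. They stand in for depth only if calling settings were the same in each library. Total read counts were not used here. Leaving out other chromosomes removed 99 of 589539 peaks. Percentiles were taken over the 56679 shared regions within each library.

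Fold percentiles were compared with limma 3.58.1 in R 4.3.3 with Benjamini-Hochberg adjustment over all shared regions, at 0.05. The fit was tried on simulated data with noise of a single size and shifts only at regions in the middle of the percentile scale. The spread of the real percentiles differs between regions, so this trial does not cover regions near the ends of the scale. Library values were compared with exact permutation or sign-flip tests in Python 3.11.15. Regions named were the 10 of highest lowest −log10 q, the 5 most isolated, 3 on each side of 100 kb, the 3 of lowest p in each direction, the 3 widest and the 3 of lowest fold percentile. Regions on chromosome 8 were counted and not named. The members, lists and rules were chosen with earlier results of these data known. RefSeq GRCh38.p14 served only to count protein-coding genes per chromosome. The planned gene positions, gene lists, sequence content and motifs need an annotation or genome of the coordinates' build and were not run. Alternatives changed the distance, merging, peak threshold, overlap, measure, replicate block and libraries.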

Additional observations from a re-analysis of the deposited data

How the results depend on the processing

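Isolated regions numbered 6287 at 50 kb and 642 at 200 kb, and 2150 to 2306 with a library left out. At 50 kb the width difference was 0 bp. The difference in the share with a neighbouring region, 3.58 points, turned to -0.298 when peaks below a −log10 q of 5 were left out and to -0.402 when only such neighbours were, and ranged from -6.36 to 9.81 with a library left out. The median fold percentile minus 50, 7.96, turned to -11.0 on −log10 q and to -24.1 on pileup. With a library left out it ranged from 7.07 to 8.21 and the width difference from -43.8 to -35.6 bp, each at an exact p of 0.0625, the smallest that 5 libraries allow. The group difference of -2.37 turned to 0.367 on pileup percentile and ranged from -4.52 to -0.280 with a library left out. At 200 kb it was -6.11 (exact permutation p = 0.1). The limma calls on fold percentile, 0 in each direction, stayed 0 with any library left out, on −log10 q and on centred log2 fold. On pileup percentile 1 isolated region was called higher, of 2 called over all shared regions. On centred log2 pileup 15 were called higher and 4 lower, of 340 called over all shared regions.

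The replicate numbers did not pair the libraries, since same-numbered deviations correlated at -0.00249, -0.0484 and -0.0145. With the replicate block limma called 0, and paired sign flips gave -2.37 (exact p = 0.5) and 3.58 (exact p = 1). Each group had 3 libraries and the median pileup of isolated regions was 28 to 43 fragments by library. How far these limit the calls was not tested, and no test here used read counts.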

Other observations

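Values on single chromosomes were looked at after the main values were seen, and no test was made. The 19 isolated regions of chromosome 19 had a median fold percentile of 85.1 over the libraries (range 78.8 to 89.2) and a median pileup percentile of 50.4 (42.8 to 60.5). The 161 isolated regions of X had a fold percentile of 63.1 (58.3 to 68.8) and a pileup percentile of 28.0 (24.1 to 32.4), against 57.7 (55.1 to 61.8) and 25.9 (25.2 to 27.2) on the autosomes. On X the isolated peaks were 437 to 605 bp wide at the median of a library, and on the autosomes 397 to 546 bp.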
